A study of Mus musculus with 18 samples.

Results

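The genes of de novo fatty acid synthesis were followed in mouse brown adipocytes of the wt1-SAM line, left unstimulated or stimulated with isoproterenol. The 10 genes (Acly, Acaca, Acacb, Fasn, Scd1, Scd2, Elovl6, Me1, Srebf1 and Mlxipl) were taken from the deposited gene count table by symbol, with earlier results of these data known, and make up 10 of the 54347 genes listed there. De novo lipogenesis turns surplus carbohydrate into fatty acids. ATP citrate lyase (Acly) splits cytosolic citrate into acetyl-CoA, the acetyl-CoA carboxylases (Acaca, Acacb) make malonyl-CoA from it, and fatty acid synthase (Fasn) builds palmitate with the NADPH that malic enzyme (Me1) and other enzymes provide. Elovl6 then lengthens palmitate, while Scd1 and Scd2 introduce a double bond. The transcription factors SREBP-1 (Srebf1) and ChREBP (Mlxipl) drive these genes in response to insulin and glucose, and brown fat is known for running lipogenesis and fatty acid oxidation side by side.

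wt1-SAM cells are immortalised brown preadipocytes that stably carry the SAM machinery for CRISPR activation. They were differentiated in medium with rosiglitazone, T3, dexamethasone, insulin, indomethacine and IBMX, then kept with rosiglitazone and insulin and later with rosiglitazone alone, so that all groups share these agents. On day 4 of differentiation, 500000 cells per well were reverse transfected with 1.4 µl of a locked nucleic acid gapmer (LNA, a modified antisense oligonucleotide) at 10 µM, and cells were harvested on day 7. The LNA was the non-targeting ctrlA, LNA1 or LNA2, the last 2 of which are directed against the long non-coding RNA Gm15551. Cells stayed unstimulated or received 1 µM isoproterenol, an agonist of β-adrenergic receptors, for 24 h, which gave 6 groups of 3 libraries with the replicate numbers 2, 3 and 4. The labels do not say whether replicates came from separate cultures, so p-values measure the spread between these libraries, which may be technical.

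Library totals ranged from 9167560 to 19723021 counts. Gm15551 itself was barely detected, with 42 counts over the 6 ctrlA libraries, 24 over the 6 LNA1 libraries and 27 over the 6 LNA2 libraries. Levels are given as CPM, the count scaled to library size with TMM factors. The pan-adipocyte marker Fabp4 lay between 7081 and 20719 CPM, whereas Ucp1, the uncoupling protein that defines brown fat, reached only 0.621 to 16.5 CPM and Dio2 had 0 counts in 9 of 18 libraries. Of the macrophage markers, Ptprc and Adgre1 stayed at or under 3 counts in each of the 18 libraries, whereas Cd68 was present in all of them at 7.83 to 42.4 CPM. Of the endothelial markers, Kdr and Tek stayed at or under 3 counts throughout and Pecam1 was at 1.59 to 3.82 CPM. The 6 libraries of replicate 2 stood apart from the other 12. Mitochondrial transcripts took 7.86 to 9.79% of their counts, against 2.56 to 4.97% in replicates 3 and 4, and a single ribosomal RNA gene took 2.88 to 14.29% against 0.28 to 1.04%. Values without the replicate 2 libraries are given beside many of the results that follow, most of them chosen after seeing the data.

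The LNAs are printed because they define the groups, 5′ to 3′ in lower case.
ctrlA: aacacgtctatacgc
LNA1: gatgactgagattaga
LNA2: aagtagcacggcgttg
LNA1 and LNA2 are complementary over all 16 bases to exon 2 of 2 of Gm15551 on the minus strand of GRCm38, LNA1 at chr3:126667502-126667517 and LNA2 at chr3:126667608-126667623. In the annotated transcripts of the 10 lipogenesis genes the longest complementary run was 9 bases, found for LNA1 in Acaca, and 6 bases was the shortest of the longest runs.

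RefSeq promoter windows of 300 bases (250 before and 50 after a start, GRCm38.p6) were available for 8 of the 10 genes, 12 windows in all. Scd1 and Scd2 were not among them. The windows were searched on both strands for the E-box CACGTG, which ChREBP and SREBP-1 can bind, the sterol element TCACNCCAC, the CCAAT box CCAAT, the GC box GGGCGG and the cyclic AMP response element TGACGTCA. Overlapping matches were counted. The windows of Fasn, Acly and Me1 are shown as those of the synthase and of the enzymes that supply its acetyl-CoA and NADPH, with motif letters in capitals.
Fasn, chr11:120824498-120824797, minus strand: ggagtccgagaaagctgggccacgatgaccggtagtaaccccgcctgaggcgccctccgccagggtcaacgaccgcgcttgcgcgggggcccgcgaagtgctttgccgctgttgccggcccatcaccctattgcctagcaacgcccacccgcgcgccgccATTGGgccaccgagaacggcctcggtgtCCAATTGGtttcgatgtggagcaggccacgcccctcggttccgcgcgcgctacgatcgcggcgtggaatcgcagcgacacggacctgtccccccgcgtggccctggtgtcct
Acly, chr11:100527951-100528250, minus strand: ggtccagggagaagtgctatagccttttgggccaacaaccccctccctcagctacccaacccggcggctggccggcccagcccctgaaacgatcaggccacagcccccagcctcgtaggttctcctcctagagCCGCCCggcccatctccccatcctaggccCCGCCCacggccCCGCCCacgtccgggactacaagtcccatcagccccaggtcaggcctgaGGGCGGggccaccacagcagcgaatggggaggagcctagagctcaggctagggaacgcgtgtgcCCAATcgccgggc
Me1, chr9:86695865-86696164, minus strand: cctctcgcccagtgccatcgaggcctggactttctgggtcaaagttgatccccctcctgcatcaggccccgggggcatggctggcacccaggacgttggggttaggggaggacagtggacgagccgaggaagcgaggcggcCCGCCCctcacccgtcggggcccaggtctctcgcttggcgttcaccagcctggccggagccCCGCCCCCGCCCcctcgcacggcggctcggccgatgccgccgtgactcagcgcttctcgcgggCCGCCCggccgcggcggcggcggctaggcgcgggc
The Fasn window holds 3 CCAAT boxes, 2 of which overlap on opposite strands, the Acly window 1 CCAAT box and 4 GC boxes, and this Me1 window 4 GC boxes. A CCAAT box occurs in 37.41% and a GC box in 35.66% of the 32851 RefSeq promoter windows of that length. An E-box (7.15% of all windows) and a sterol element (1.24%) each occurred in 1 of the 12 windows, both of them windows of Mlxipl, and the cyclic AMP response element (1.79%) in 0 of 12. A match describes letters in a window and not binding.

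Acly lies at chr11:100476353-100528000, Acaca at chr11:84129672-84401651, Acacb at chr5:114146535-114250761, Fasn at chr11:120805846-120824547 and Srebf1 at chr11:60199089-60222581. Scd1 lies at chr19:44394455-44407879, Scd2 at chr19:44293674-44306864, Elovl6 at chr3:129532355-129638495, Me1 at chr9:86581371-86695953 and Mlxipl at chr5:135089890-135138382, all protein-coding in GENCODE M21. Acaca shared 33.35% of its 31-base words with other annotated genes and Me1 30.0%, largely with the processed pseudogenes Gm5182 and Gm7049. These had at most 16 and 28 counts in any library, which is at most 0.707% of the Acaca count and 0.946% of the Me1 count. Scd1 shared 8.14% and Scd2 6.81% of its words, mostly with Scd3, whose count was 0.882 to 1.84% of that of Scd1 and 3.69 to 10.0% of that of Scd2. Exons of Srebf1 overlap Rai1 on the opposite strand. Since the use of strand in the quantification is not given in the sources used here, the Srebf1 counts are uncertain to that extent, and Rai1 amounted to 14.4 to 20.7% of the Srebf1 count. The same holds for Mlxipl, Elovl6 and Me1, whose exons overlap Gm43500, Gm35986 and A330041J22Rik on the opposite strand. These amounted to at most 15.4%, 1.11% and 0.31% of the respective counts.

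Levels per length ordered the 10 genes over a wide range. Scd1, the stearoyl-CoA desaturase of adipose tissue and liver, was the highest, at a median of 2883 CPM per kb of exon (1355 to 4017 over the 18 libraries), and was above Scd2 in each of them. Scd1 alone took 0.611 to 2.11% of all counts and ranked from 1 to 9 among all genes, with a median rank of 1. Scd2 followed at a median of 607 CPM per kb, above Me1 in 18 of 18 libraries. Me1 (78.2 CPM per kb), Fasn (71.9) and Srebf1 (65.1) changed places between replicate numbers. Over all libraries Me1 was above Fasn in 10 of 18 and Fasn above Srebf1 in 12 of 18. In the 12 libraries of replicates 3 and 4, Me1 was above Fasn in 4 and Fasn above Srebf1 in 11, with medians of 101 CPM per kb for Fasn, 81.0 for Me1 and 70.6 for Srebf1. Acly (48.0) was below Srebf1 in 12 of 18 libraries, which were all 12 of replicates 3 and 4. Acacb (25.4), the carboxylase isoform tied to mitochondria, was above the cytosolic isoform Acaca (11.8) in all 18 libraries. This order rests on the exon lengths used, 9632 bp for Acacb and 17074 bp for Acaca, the union of the exons of all annotated transcripts. By counts Acaca was 1.09 to 1.39 times Acacb in the 6 libraries of replicate 2 and 0.667 to 1.11 times in the other 12. Elovl6 reached a median of 1.19 CPM per kb and Mlxipl 0.0872.

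Mlxipl was close to the limit of detection. It had 2 to 13 counts per library, 2 libraries were at or under 3 counts, and it did not pass the filter on low counts. At a floor of 3 counts, levels under 0.152 to 0.327 CPM, depending on the library, cannot be told from absence. Its mean was 0.41 ± 0.102 CPM in the 9 unstimulated and 0.579 ± 0.183 CPM in the 9 stimulated libraries (SD), and it was higher in 7 of 9 pairs. An exact two-sided permutation test within LNAs gave p = 0.031 for isoproterenol, which became 0.124 after Benjamini-Hochberg adjustment over the 4 comparisons made. This test shuffled libraries without regard to replicate number, so it does not use the pairing. Without replicate 2 its means were 0.39 and 0.666 CPM. The same exact test, again without the pairing, gave an unadjusted p = 0.00926, the smallest that its 216 arrangements allow. Mlxipl was higher in 3 of 3 pairs of replicate 3 and of replicate 4, and in 1 of 3 of replicate 2. For the comparisons between LNAs the same exact test gave p = 0.29 (LNA1 against ctrlA), 0.87 (LNA2 against ctrlA) and 0.21 (LNA2 against LNA1).

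**Figure D1:**
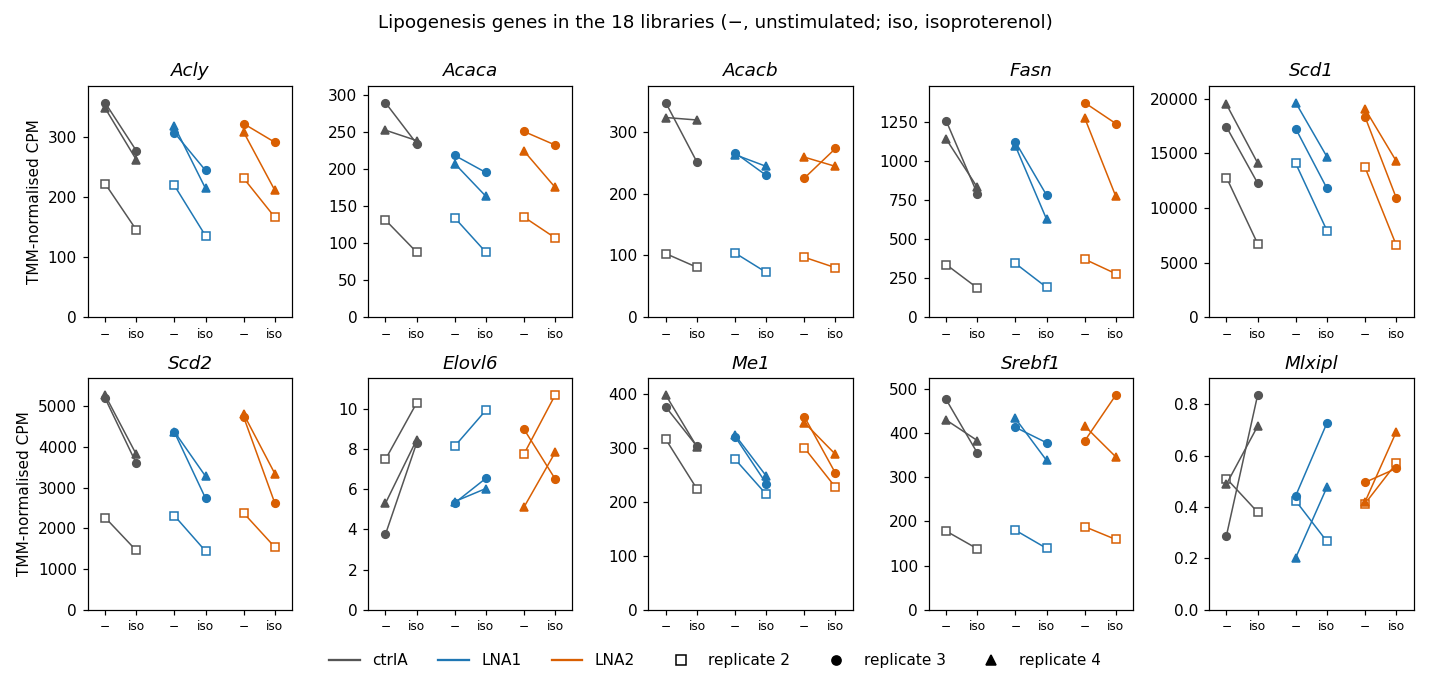
TMM-normalised CPM (vertical axes, from 0, a scale of its own for each gene) of the 10 genes in the 18 libraries. Colours are LNAs, symbols are replicate numbers, and lines join the unstimulated (−) and isoproterenol (iso) libraries of the same number. Most lines of the enzymes slope down, and those of Elovl6 slope up in 8 of 9 pairs. The open squares of replicate 2 lie below all others for Fasn, Acaca, Acacb, Scd2 and Srebf1.

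Isoproterenol was compared with no stimulation over the 3 LNAs, 9 libraries against 9. The desaturases and the enzymes that make palmitate were lower after 24 h of stimulation. Scd1 was lower by 34.5%, Scd2 by 33.4%, Fasn by 32.1%, Acly by 26.2% and Me1 by 24.0% in the fitted model, whereas Elovl6 was 30.6% higher. In edgeR without a term for the replicate number, Me1 alone passed the test among the 9 genes tested (1 lower, 0 higher). Over all 14949 genes tested the same rule called 1.91% lower and 2.67% higher. With the replicate number as a block, 8 of the 9 genes fell and Elovl6 rose, against 12.2% of all genes lower and 14.2% higher under that rule. Libraries of the same number deviated together, and the blocked values are therefore printed beside the others. The median log2 fold change over the 9 genes was -0.40 and over all genes tested 0. Fewer cells of a type and less RNA per cell cannot be told apart in such bulk samples.

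Of the enzymes that feed the synthase, Me1 had 316, 376 and 398 CPM in unstimulated ctrlA cells (replicates 2, 3 and 4 in this order here and below) and 224, 303 and 302 CPM after isoproterenol. With LNA1 the values were 279, 321 and 324 CPM without and 214, 234 and 248 CPM with stimulation. With LNA2 they were 300.1, 358 and 347 CPM without and 227, 253 and 288 CPM with stimulation. With each LNA, the stimulated libraries lay wholly below the unstimulated ones. The decrease of Me1 passed the test in edgeR at a log2 fold change of -0.40 both without (SE 0.09, adjusted p = 0.017) and with the block (SE 0.04, adjusted p = 9.8e-07). Its pairs were lower in 9 of 9 cases, at -0.50 to -0.27. The call was lost without a filter on low counts (adjusted p 0.141), without replicate 3 (0.459) and without replicate 4 (0.28), and was kept without replicate 2 (0.00115).

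Acly, which supplies the acetyl-CoA, had 223, 358 and 349 CPM in unstimulated and 146, 278 and 263 CPM in stimulated ctrlA cells. With LNA1 it had 220.1, 308 and 319 CPM against 136, 245 and 215 CPM, and with LNA2 232, 323 and 309 CPM against 167, 292 and 212 CPM. Unstimulated and stimulated values overlapped in all 3 LNAs. The unstimulated library of replicate 2 lay below the stimulated ones of replicates 3 and 4 with ctrlA, and below that of replicate 3 but above that of replicate 4 with LNA1 and LNA2. Each pair of the same number was lower with isoproterenol. The log2 fold change was -0.44 (SE 0.17, adjusted p = 0.206 in edgeR) and -0.46 with the block (SE 0.06, adjusted p = 1.55e-05). Without replicate 2 Acly passed the test without a block as well (-0.40, adjusted p 0.00722).

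Acaca, the isoform whose malonyl-CoA is used for synthesis, was between 131 and 289 CPM (median 218) in the 9 unstimulated libraries and between 87.7 and 238 CPM (median 175) in the 9 stimulated ones. It was lower in 9 of 9 pairs, with a blocked log2 fold change of -0.31 (SE 0.07, adjusted p = 0.00281) and an unblocked one of -0.28 (SE 0.25, adjusted p = 0.743 in edgeR). Acacb, whose malonyl-CoA restrains fatty acid entry into mitochondria, was lower in 8 of 9 pairs. Its blocked log2 fold change of -0.19 (SE 0.07, adjusted p = 0.041) passed the test in only 5 of the 18 fits that left out 1 library each, and its unblocked value was -0.14 (SE 0.37, adjusted p = 0.955). The count ratio of Acaca to Acacb had a median of 0.864 without and 0.851 with isoproterenol.

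Fasn, the synthase itself, had 338, 1259 and 1142 CPM in unstimulated ctrlA cells and 188, 792 and 832 CPM in stimulated ones. With LNA1 it had 345, 1123 and 1097 CPM against 192, 782 and 628 CPM. With LNA2 it had 372, 1374 and 1277 CPM against 279, 1240.2 and 774 CPM. The groups overlapped because of replicate 2, which lay below every other library in its group, and within replicates 3 and 4 of each LNA the stimulated values were lower than the unstimulated ones. Fasn was lower in 9 of 9 pairs, at log2 ratios of -0.85 to -0.15, the smallest being that of LNA2 replicate 3. The fit gave -0.56 (SE 0.42, adjusted p = 0.67 in edgeR) and with the block -0.60 (SE 0.07, adjusted p = 4.6e-06). Without replicate 2 and without a block it was -0.55 (adjusted p 0.00617).

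Scd1 had 12796, 17428 and 19491 CPM in unstimulated and 6739, 12282 and 14125 CPM in stimulated ctrlA cells. With LNA1 it had 14082, 17270.1 and 19649 CPM against 7943, 11812 and 14703 CPM, and with LNA2 13735, 18358 and 19075 CPM against 6629, 10948 and 14313 CPM. The groups overlapped with each LNA, as the unstimulated library of replicate 2 was below the stimulated one of replicate 4, but all 9 pairs were lower. On the log2 scale the pairs of replicate 2 differed by -1.05 to -0.83, those of replicate 3 by -0.75 to -0.50 and those of replicate 4 by -0.46 to -0.41. In the fit the value for Scd1 was -0.61 (SE 0.19, adjusted p = 0.0865 in edgeR, 0.0219 in DESeq2) and with the block -0.65 (SE 0.06, adjusted p = 1.35e-06). The share of all counts that Scd1 took had a median of 1.84% in unstimulated and 1.24% in stimulated libraries.

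Scd2, a related desaturase expressed in many tissues, had 2268, 5206 and 5281 CPM without and 1457, 3603 and 3823 CPM with isoproterenol in ctrlA cells. With LNA1 it had 2314, 4371 and 4382 CPM against 1443, 2743 and 3284 CPM, and with LNA2 2378, 4745 and 4814 CPM against 1541, 2624 and 3349.8 CPM. As for Fasn, groups overlapped only through replicate 2. All 9 pairs were lower, at log2 ratios of -0.85 to -0.42. The fit gave -0.59 (SE 0.26, adjusted p = 0.304 in edgeR) and with the block -0.60 (SE 0.05, adjusted p = 4.55e-07).

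Elovl6 went the other way at a low level. It had 7.49, 3.75 and 5.3 CPM in unstimulated and 10.3, 8.3 and 8.47 CPM in stimulated ctrlA cells, which did not overlap. With LNA1 it had 8.15, 5.32 and 5.39 CPM against 9.94, 6.55 and 6.04 CPM, and with LNA2 7.76, 9.0 and 5.11 CPM against 10.7, 6.52 and 7.84 CPM, with overlap in both. Counts were 52 to 136 per library. It was higher in 8 of 9 pairs, the exception being LNA2 replicate 3. The log2 fold change was 0.38 (SE 0.17, adjusted p = 0.3 in edgeR) and with the block it rose by 0.38 (SE 0.11, adjusted p = 0.0183), a call that was lost in the 12 libraries of replicates 3 and 4 (0.38, SE 0.16, adjusted p = 0.157).

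Srebf1, the regulator, had in ctrlA cells 178, 476 and 429.6 CPM without and 138, 355 and 383 CPM with stimulation, with LNA1 179.9, 413 and 433 CPM against 139, 378 and 338 CPM, and with LNA2 188, 382 and 416 CPM against 159, 486 and 346 CPM. The library of LNA2 replicate 3 with isoproterenol was the highest of all 18 and belonged to the 1 pair of 9 in which Srebf1 was higher when stimulated. The log2 fold change was -0.19 (SE 0.31, adjusted p = 0.911 in edgeR) and -0.22 with the block (SE 0.06, adjusted p = 0.0125). In the 12 libraries of replicates 3 and 4 the blocked value was -0.17 (SE 0.08, adjusted p = 0.199).

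Restricted to replicates 3 and 4, the fit with the block called 6 of the 9 genes, all lower, namely Acly (-0.40), Acaca (-0.23), Fasn (-0.55), Scd1 (-0.52), Scd2 (-0.58) and Me1 (-0.39), where 6.1% of all genes were called lower and 7.01% higher. Without a block the same 12 libraries gave 5 lower, all of these but Acaca, against 4.94% of all genes lower and 5.93% higher. Leaving out each of the 18 libraries in turn, the blocked fit called 8 or 9 of the 9 genes, with Acacb as the one that was lost.

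**Figure D2:**
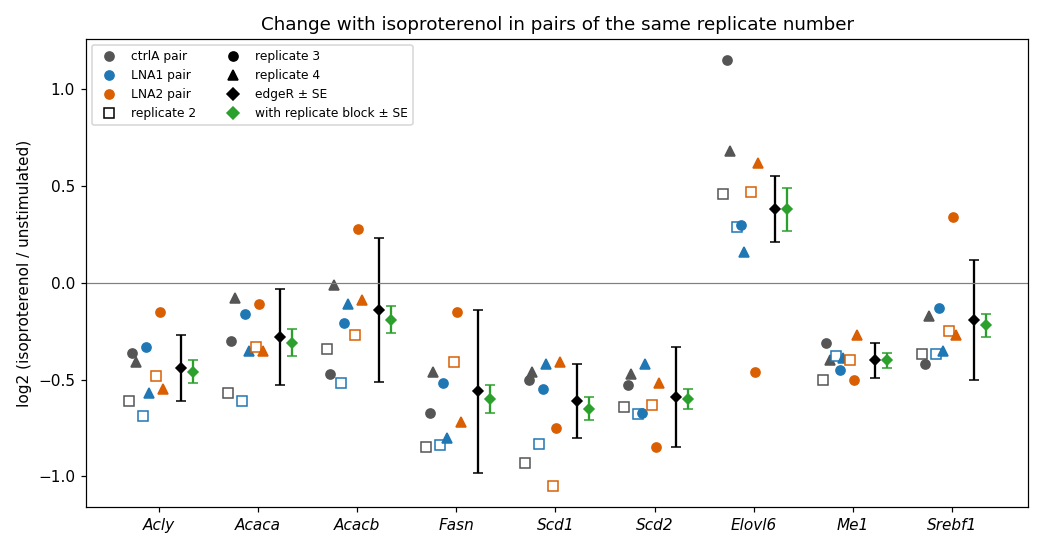
Log2 ratio of isoproterenol to unstimulated CPM (vertical axis) for 9 genes in the 9 library pairs of the same LNA and replicate number. Diamonds with bars are the edgeR log2 fold change ± SE without (black) and with (green) the replicate number as a block. All 9 pairs lie below 0 for Acly, Acaca, Fasn, Scd1, Scd2 and Me1, 8 of 9 lie above 0 for Elovl6, and the green bars are shorter than the black ones.

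Whether the response was present with each LNA was examined in the 3 contrasts of 3 libraries against 3. Without a block edgeR called 0 of the 9 genes in ctrlA (2 at an unadjusted p under 0.05, against 0.488% of all genes called), 0 in LNA1 (1 at that p, 0.702% of all genes called) and 0 in LNA2 (1 at that p, 0.395% of all genes called). DESeq2 called 0 in each. With the block the test called 6 genes in ctrlA, where 7.88% of all genes were called, 5 in LNA1 (9.84% of all genes) and 5 in LNA2 (9.55% of all genes). Acly, Fasn, Scd1, Scd2 and Me1 fell in each of the 3 under the block. Blocked log2 fold changes of Fasn were -0.65 in ctrlA, -0.73 in LNA1 and -0.42 in LNA2, those of Scd1 -0.63, -0.60 and -0.74, those of Scd2 -0.54, -0.59 and -0.66, those of Acly -0.46, -0.53 and -0.39, and those of Me1 -0.40, -0.41 and -0.39 (SE 0.07 to 0.11 over these genes). Elovl6 rose in ctrlA (0.73, SE 0.19, adjusted p = 0.0283 in edgeR with the block), a call lost in 5 of 18 fits without 1 library, which were those without unstimulated ctrlA replicate 2 or 3 (adjusted p 0.051 and 0.168) or stimulated ctrlA replicate 2, 3 or 4 (0.0627, 0.0952 and 0.0993). For Elovl6 the blocked values were 0.25 (SE 0.20) with LNA1 and 0.17 (SE 0.19) with LNA2. In LNA2 the Fasn call was lost without any 1 of its libraries other than stimulated replicate 3 (adjusted p 0.056 to 0.0861), and that of Acly without unstimulated replicate 2 (0.0954) or stimulated replicate 4 (0.0621). Restricted to replicates 3 and 4, the blocked fit called Scd1 and Scd2 in ctrlA (2.36% of all genes called), these and Fasn and Me1 in LNA1 (3.63% of all genes), and Scd1, Scd2 and Me1 in LNA2 (2.37% of all genes).

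The differences of these responses between LNAs were tested as interactions. Without the block 0 of the 9 genes were called by edgeR for LNA1 and 0 for LNA2, with 0 at an unadjusted p under 0.05 in either, and the share of all genes called was 0.0% in both. With the block, 0 genes were called for either interaction and likewise 0.0% of all genes, and DESeq2 called 0 of the 9. Without replicate 2 the interactions had 0 calls as well, with and without the block. The blocked interaction of Elovl6 was -0.48 for LNA1 (SE 0.28, adjusted p = 1) and -0.56 for LNA2 (SE 0.27, adjusted p = 0.81), that of Fasn for LNA2 was 0.23 (SE 0.16, adjusted p = 0.81) and that of Srebf1 for LNA2 was 0.27 (SE 0.15, adjusted p = 0.81). The joint test over the 6 groups called 0 of the 9 genes without a block (1 at an unadjusted p under 0.05, 1 in DESeq2, 2.94% of all genes called) and 7 with it (32.0% of all genes called), Elovl6 and Srebf1 being the ones that did not pass.

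Each LNA was compared over both stimulation states together, 6 libraries against 6. Both comparisons with ctrlA share the ctrlA libraries. Without a block edgeR called 0 of the 9 genes with LNA1 (1 at an unadjusted p under 0.05, against 0.475% of all genes called), 0 with LNA2 (0 at that p, 1.59% of all genes called) and 0 for LNA2 against LNA1 (0 at that p, 0.97% of all genes called). DESeq2 called 0 in each. With the block the test called 1 of 9 with LNA1, where 7.8% of all genes were called, 1 of 9 with LNA2 (20.6% of all genes) and 1 of 9 between the LNAs (15.4% of all genes). The call of 1 of 9 is near the share of all genes with LNA1 and below it with LNA2 and between the LNAs, so that the genes described next are not a result about the set. Blocked fits without 1 library called 1 to 4 genes with LNA1, 0 to 2 with LNA2 and 1 to 2 between the LNAs. With LNA1 these were 3 without stimulated ctrlA replicate 2 (Acaca, Scd2 and Me1), 3 without unstimulated LNA1 replicate 2 (Acaca, Acacb and Me1), 4 without stimulated LNA2 replicate 3 (Acaca, Acacb, Scd2 and Me1) and 1 without any other. With LNA2 Acacb was called without stimulated ctrlA replicate 2, unstimulated LNA1 replicate 2, unstimulated LNA2 replicate 2 or stimulated LNA2 replicate 3, and between the LNAs Me1 was called beside Fasn without the last of these. The gene that fell with LNA1 was Me1, at -0.24 in edgeR with the block (SE 0.05, adjusted p = 0.00519, or 0.765 without the block). It was lower in 6 of 6 pairs (-0.37 to -0.07), as was Acly (-0.29 to -0.02), it was called in 18 of 18 blocked fits without 1 library, and in the 12 libraries of replicates 3 and 4 it was -0.27 (SE 0.06, adjusted p = 0.0503). Its mean level was 320.1 ± 61.7 CPM in ctrlA cells, 270.0 ± 45.7 CPM under LNA1 and 295 ± 51.0 CPM under LNA2 (SD of 6 libraries), so that the ranges overlapped. In those 12 libraries Acaca was the gene called with LNA1 (-0.35, SE 0.07, adjusted p = 0.0394 in edgeR with the block), where 2.35% of all genes were called.

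Fasn was the 1 gene called with LNA2 under the block, fewer than the share of all genes, with a value of 0.26 against ctrlA (log2, SE 0.08, adjusted p = 0.0313 in edgeR with the block, 0.977 without) and 0.36 against LNA1 (SE 0.08, adjusted p = 0.00687 with the block, 1 without). Its mean level was 758 ± 426 CPM in ctrlA cells, 695 ± 383 CPM under LNA1 and 886 ± 482 CPM under LNA2 (SD of 6 libraries), differences smaller than the spread within each LNA. Against ctrlA it was higher in 5 of 6 pairs, and the call was lost in 6 of 18 blocked fits without 1 library. These left out unstimulated ctrlA replicate 3 (adjusted p 0.0809) or 4 (0.0613), stimulated ctrlA replicate 2 (0.0624) or 3 (0.0907), unstimulated LNA2 replicate 4 (0.0855) or stimulated LNA2 replicate 3 (0.0595, with the estimate down to 0.18). Without stimulated LNA2 replicate 3 and without a block the value was -0.03. Against LNA1 it was higher in 6 of 6 pairs and called in 18 of 18 such fits. In the 12 libraries of replicates 3 and 4 neither passed (0.24, adjusted p = 0.166 against ctrlA, and 0.38, adjusted p = 0.0616 against LNA1). Scd1, the most abundant of the genes, differed by -0.01 to 0.05 between either LNA and ctrlA (SE 0.23) and was not called in these fits with or without the block. Markers of adipocytes and of other cell types were read in the same comparisons with ctrlA. There the block called 7.8% of all genes with LNA1 and 20.6% with LNA2. Of the 8 adipocyte markers 0 were called without a block, while with it 1 was lower with LNA1, Plin1 (-0.23), and 3 with LNA2, Fabp4 (-0.21), Cidec (-0.21) and Pparg (-0.20). Of the 7 brown adipocyte markers tested, 0 were called without a block, and with it 0 with LNA1 and 1 with LNA2, Ppargc1a (-0.31, also the list's median without a block). Without replicate 2 the adipocyte markers had 0 calls with either LNA, with and without the block. Of the 7 preadipocyte and fibroblast markers tested, 1 was higher and 0 lower with LNA1 and with LNA2 without a block (1 higher and 1 lower, and 3 higher and 2 lower, with it), and their median log2 fold change was -0.22 and -0.05. The one called was Pdgfra, a receptor of PDGF (0.89, adjusted p = 0.00743 in edgeR, and 0.71, adjusted p = 0.0121), also without replicate 2 (1.02 and 0.88), while the collagen gene Col1a2 was lower with the block (-0.49 and -0.41, adjusted p = 0.00316 and 0.00415). Of the macrophage markers 2 were tested, and with LNA2 both were higher under the block, Cd68 at 0.88 (adjusted p = 7.74e-05 in edgeR with the block, 0.057 without) and Csf1r at 1.71 (adjusted p = 0.00677 with the block, 0.137 without), the latter at or under 3 counts in 7 of 18 libraries. With LNA1 Cd68 was called under the block (0.42, adjusted p = 0.0408), a call lost without replicate 2 (0.44, adjusted p = 0.112). The sum of the 5 macrophage markers ranged from 8.23 to 24.8 CPM in the ctrlA libraries, from 11.5 to 30.2 CPM under LNA1 and from 14.1 to 44.6 CPM under LNA2. The part of these markers in the values of Me1 and Fasn was not tested.

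**Figure D3:**
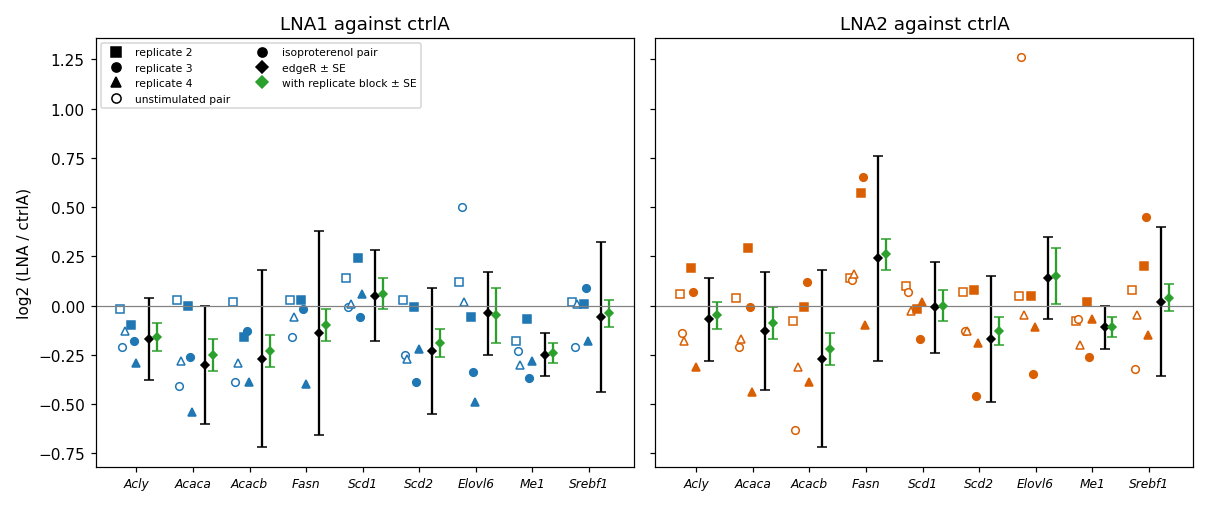
Log2 ratio of LNA1 (left) and LNA2 (right) to ctrlA for 9 genes in the 6 library pairs of the same stimulation and replicate number (vertical axis, shared by both panels). Diamonds are the edgeR estimates ± SE without (black) and with (green) the block. The Me1 pairs of LNA1 all lie below 0, as do those of Acly, with 5 of 6 for Acaca, Acacb and Scd2, and 5 of 6 Fasn pairs of LNA2 lie above 0.

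Other genes of the pathway were taken from 4 lists, of which 47 of 48 genes were tested. With isoproterenol, 0 of 47 were higher and 7 lower in edgeR without a block (6 higher and 18 lower with it), and their median log2 fold change was -0.09 against 0 for all genes tested. Of all genes tested, 2.67% were called higher and 1.91% lower without a block, and 14.2% and 12.2% with it, so that the 6 higher are near the share of all genes. Without replicate 2 and without a block, 1 of 46 was higher and 14 lower, where 5.93% of all genes were higher and 4.94% lower. With the block 2 were higher and 17 lower there, against 7.01% and 6.1% of all genes. The strongest was Insig1, which holds the SREBP complex in the endoplasmic reticulum and is itself a target of SREBP. Its level was 871 ± 59.9 CPM without and 465 ± 48.3 CPM with stimulation (SD of 9 libraries). The estimate was -0.91 (log2, SE 0.07, edgeR adjusted p = 6.57e-07), and the ranges of 768 to 969.9 and 381 to 522 CPM did not overlap. Among the 9 genes that supply citrate, acetyl-CoA and NADPH, 2 fell without a block and 7 with it, and 0 rose in either fit. When replicate 2 was left out, 5 were lower without a block and 6 with it. The 2 called without a block in all 18 libraries were Acss2 and Slc25a1. Acss2, which makes acetyl-CoA from acetate, went from 186 ± 27.1 to 102 ± 19.0 CPM (-0.87, SE 0.10, adjusted p = 9.85e-05 in edgeR), and the mitochondrial citrate carrier Slc25a1 from 339.7 ± 43.1 to 239 ± 37.4 CPM (-0.51, SE 0.10, adjusted p = 0.0055).

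Of the 15 tested genes of elongation and desaturation 4 fell and 0 rose without a block (7 lower and 3 higher with it). The estimate for Scd3, a further desaturase, was -0.68 (log2, SE 0.10, edgeR adjusted p = 0.000995). Scd3 shares sequence with the far more abundant Scd1 and Scd2, and the part of their reads in its count was not tested. For Fads3, of the fatty acid desaturase family, the estimate was -0.64 (SE 0.12, adjusted p = 0.00477), and for Tecr, the reductase of the elongation cycle, -0.30 (SE 0.06, adjusted p = 0.0124). The remaining one, Hsd17b12, lies outside the naming rule and was chosen after its values were seen (-0.34, adjusted p = 0.0496). All 7 called genes were lower in 9 of 9 pairs and were called without replicate 2 as well, with log2 fold changes of -0.93 (Insig1), -0.82 (Acss2), -0.63 (Fads3), -0.59 (Scd3), -0.51 (Slc25a1), -0.34 (Hsd17b12) and -0.29 (Tecr). The elongase gene Elovl3 was higher in 9 of 9 pairs, at 253 ± 57.8 CPM without and 326 ± 58.3 CPM with stimulation (0.36, adjusted p = 0.111 in edgeR without and 7.51e-05 with the block), and was called without replicate 2 without a block (0.47, adjusted p = 0.000742). In that fit 7 of the 14 tested genes of this list were lower and Elovl3 was the 1 higher. Elovl3 too was chosen after its values were seen, as was Mid1ip1 in the next list. Of the 6 genes that control carboxylase and malonyl-CoA 0 were called without a block (1 higher and 3 lower with it), and of the 17 transcriptional regulators Insig1 was the 1 called (2 higher and 1 lower with the block). When replicate 2 was left out, the block called 0 higher in both lists, with 3 and 1 lower. Without replicate 2 and without a block Mid1ip1, of the carboxylase list, was lower as well (-0.35, adjusted p = 0.00974 in edgeR). In the 3 comparisons between LNAs 0 of the 47 genes were called without a block. With it, 0 were higher and 9 lower with LNA1, 4 higher and 7 lower with LNA2, and 10 higher and 5 lower between the LNAs. In these comparisons 7.8%, 20.6% and 15.4% of all genes were called in either direction. By direction, of all 14949 genes 564 were higher and 602 lower with LNA1, 1409 and 1672 with LNA2, and 1230 and 1076 between the LNAs. Without replicate 2 and without a block, 0 were higher and 1 lower of 46 with LNA1, where 1.6% of all genes were called, and 4 higher and 2 lower with LNA2 (8.97% of all genes), the latter near the share of all genes. Between the LNAs 1 was higher and 1 lower (5.08% of all genes), and with the block 3 and 3 (7.2% of all genes), in place of 10 and 5. With LNA1 the block then called 0 higher and 4 lower, in place of 0 and 9, where 245 of all 14979 genes were higher and 107 lower (2.35% in either direction). With LNA2 it called 4 higher and 5 lower, where 984 of all 14979 genes were higher and 798 lower.

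Markers moved with the same stimulation. Ucp1 rose by 3.51 on the log2 scale (adjusted p = 1.12e-08 in edgeR) from 1.12 ± 0.346 to 12.9 ± 2.25 CPM, and Adipoq, the adipokine adiponectin, fell by 0.71 (adjusted p = 0.0073). Among all genes tested, 2.67% were called higher and 1.91% lower without a block, and 14.2% and 12.2% with it. The 8 brown adipocyte markers summed to 62.8 to 79.4 CPM without and 91.9 to 142 CPM with stimulation, with 3 higher and 0 lower of 7 tested. Most of this sum was Ppargc1a, at means of 52.3 and 77.6 CPM. The list's median log2 fold change was 0.09. Prdm16 was lower in 8 of 9 pairs, Adrb3 in 5, Cox8b in 4 and Cox7a1 in 3. Over the 8 adipocyte markers the summed level was 18309 to 29101 CPM in unstimulated and 15088 to 22378 CPM in stimulated libraries, with 0 higher and 2 lower (0 and 5 with the block). Their median log2 fold change was -0.32. Pparg (means of 155 and 155 CPM) and Lpl (4090 and 4103 CPM) hardly differed. The 10 preadipocyte and fibroblast markers summed to 354 to 818 CPM and 389 to 728 CPM, with 1 higher and 0 lower of 7 tested (3 and 2 with the block) and Dpp4 at 0 counts in all 18 libraries. The one called without a block was Ly6a (1.58, adjusted p = 0.0415 in edgeR), and with it Ly6a and the collagen genes Col1a1 (0.31) and Col3a1 (0.22) were the higher, Col1a2 (-0.53) and the PDGF receptor gene Pdgfrb (-0.34) the lower. Without replicate 2 and without a block 2 were higher, Ly6a (1.60) and Col1a1 (0.35), and 2 lower, Col1a2 (-0.54) and Pdgfrb (-0.35). In that fit 5.93% of all genes were higher and 4.94% lower. The 5 macrophage markers summed to 8.23 to 28.6 CPM and 12.1 to 44.6 CPM, nearly all of it Cd68, which rose (0.90, SE 0.18, adjusted p = 0.00618 in edgeR) as 1 of 2 tested, and the 4 endothelial markers to 2.06 to 3.74 CPM and 1.77 to 3.99 CPM. Without replicate 2 the values were 3.85 for Ucp1, -0.74 for Adipoq and 0.83 for Cd68 (adjusted p = 0.0367 in edgeR). There 5 of 8 adipocyte markers were lower without a block, against 4.94% of all genes. The part of these differences in the result for lipogenesis was not tested.

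**Figure D4:**
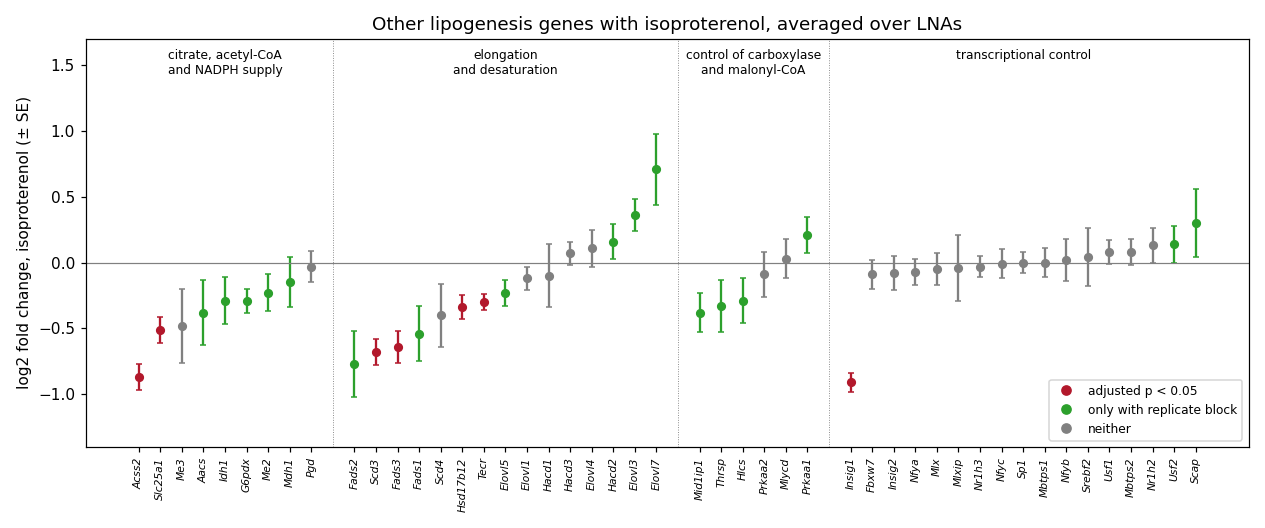
Log2 fold change with isoproterenol ± SE (edgeR without a block, averaged over LNAs, vertical axis) of the 47 tested genes of 4 lists, sorted within each list. Red marks the 7 genes called without a block, green those called only with it and grey the rest. All red points lie below 0, and of the transcriptional regulators only Insig1 is red.

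Replicate 2 was lower than the mean of replicates 3 and 4 for 8 of the 9 tested genes in all 6 groups. The median ratio was 0.279 for Fasn (0.231 to 0.31), 0.309 for Acacb, 0.39 for Srebf1, 0.488 for Scd2, 0.508 for Acaca, 0.646 for Scd1, 0.647 for Acly and 0.846 for Me1, whereas Elovl6 was higher in replicate 2 in all 6 groups (1.51, range 1.1 to 1.65). Fasn was thus separated more by replicate number than by isoproterenol, with 188 to 372 CPM in the 6 libraries of replicate 2 and 628 to 1374 CPM in the other 12. The members together took 0.822 to 1.57% of counts in replicate 2 and 1.7 to 2.93% in replicates 3 and 4. The count ratio of Scd1 to Scd2 was 4.3 to 6.09 in replicate 2 and 3.35 to 4.48 elsewhere, and that of Acaca to Acacb 1.09 to 1.39 against 0.667 to 1.11. Of the 8 adipocyte markers, 3 were higher in replicate 2 in all 6 groups, with median ratios of 1.69 (Fabp4), 1.47 (Pparg) and 1.35 (Adipoq). Another 4 were lower in all 6 groups, with medians of 0.508 (Lipe), 0.54 (Plin1), 0.642 (Cebpa) and 0.907 (Lpl), and Cidec was lower in 4 of 6 (0.963). The part of the higher mitochondrial and ribosomal RNA shares in these levels was not tested.

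**Figure D5:**
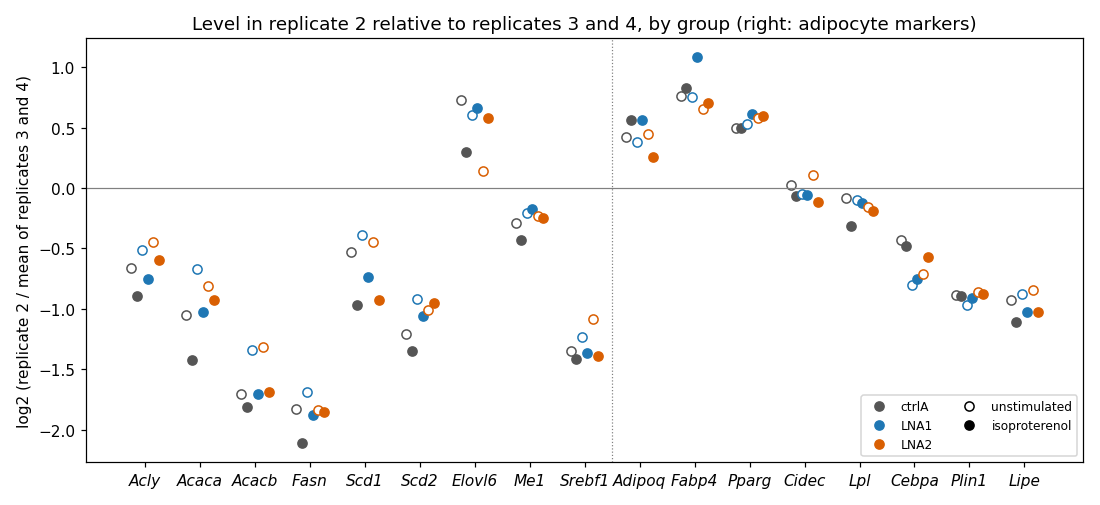
Log2 ratio of replicate 2 to the mean of replicates 3 and 4 (vertical axis) for 9 lipogenesis genes and, right of the dotted line, the 8 adipocyte markers. Each point is 1 of the 6 groups, coloured by LNA and filled when stimulated. Fasn lies between -2.11 and -1.69 in all groups. Elovl6 and 3 markers lie above 0 in all groups, 4 markers lie below 0, and Cidec lies on both sides.

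Across the 18 libraries the genes varied together, which is given as a description since libraries share replicate numbers and stimulation. Srebf1 was most like Acacb (Pearson r = 0.98 on log2 CPM) and Fasn most like Srebf1 (0.98), Acaca was most like Fasn (0.97), Acly and Scd2 were most like Acaca (0.94 and 0.93), Scd1 was most like Scd2 (0.92) and Me1 most like Scd1 (0.86). Elovl6 was negatively related to all the others (-0.75 to -0.62). After the mean of each replicate number was removed, Scd2 and Me1 were most alike (0.96), Srebf1 was most like Fasn (0.86), and Elovl6 stayed between -0.68 and -0.41. The genes outside the set most like its mean over 18 libraries were Lpin1 (r = 0.983), a phosphatidate phosphatase of triglyceride synthesis, Svep1 (0.982), Lipe (0.979), the hormone-sensitive lipase, Dgkd (0.974) and Pcx (0.973), the pyruvate carboxylase. With the means of replicate numbers removed, Lpin1 (0.969) and Lipe (0.957) were again among the 5. In the 12 libraries of replicates 3 and 4, Scd2 and Me1 were most alike (0.96), Scd1 was most like Scd2 (0.91), Acly and Fasn were most alike (0.87), Acacb was most like Acaca (0.62), and Elovl6 lay between -0.63 and -0.24. The genes outside the set most like its mean were there Slc25a1 (0.981), Plin1 (0.981), Fdps (0.965), Dhcr7 (0.963) and Lpin1 (0.96).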

How the data were processed

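RNA of 18 wt1-SAM libraries was sequenced in pairs of reads after library construction with a kit from New England Biolabs. The authors filtered reads with cutadapt and quantified them with salmon on Gencode M22 (GRCm38), whose versions, strand setting and gene-level summing are not given in the sources used here. The deposited values are expected counts, estimated fragments per gene that the authors had rounded (0 values were not whole) without scaling to depth. Columns were matched to libraries by title, and 0 columns were left over.

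The 10 genes and all lists were chosen with earlier results of these data known. Named beyond the 10 are the up to 6 called genes of 4 pathway lists with the smallest adjusted p in each averaged comparison, and the 5 genes most like the set's mean. Counts went into edgeR 4.0.16 (R 4.3.3, limma 3.58.1). filterByExpr (count 10, total 15) kept 14949 genes, scaled by TMM. Each of the 6 groups had a coefficient in the quasi-likelihood fit over 18 libraries, and contrasts were tested two-sided. Genes were called at a Benjamini-Hochberg adjusted p below 0.05 over all genes tested. DESeq2 1.42.0, another scaling, no filter, a log2 fold change limit of 0.5 and fits without libraries were alternatives. Coordinates are from GENCODE M21 (99.53% of listed genes), 31-base words from its transcripts.

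Deviations from the group means of libraries with the same number correlated at 0.24 to 0.722 in all 45 pairs of groups and numbers. In 6 of them, all of replicate 3 or 4, a library of another number correlated more (up to 0.404). Replicate 2 gave 0.649 to 0.722, and replicates 3 and 4 gave 0.24 to 0.505. As the deviations within a group sum to 0, an outlying replicate 2 alone makes those of replicates 3 and 4 alike. Pairing of replicates 3 and 4 is therefore not shown by these values. The numbers were nonetheless taken as pairing the libraries, and the replicate number was added as a block. Within groups, 0 of 18 library pairs were identical (chi-square per degree of freedom 4.3 to 177). Floors of detection cover counting error only, as reads carry no molecular identifiers. The fit was also run on simulated counts with known changes, the outcome of which is not given here.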

Additional observations from a re-analysis of the deposited data

How the results depend on the processing

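With the replicate block, 9 of the 9 tested genes were called for isoproterenol averaged over LNAs, 6 in ctrlA, 5 in LNA1, 5 in LNA2, 1 for LNA1 and 1 for LNA2 against ctrlA, 1 for LNA2 against LNA1 and 7 in the joint test, compared with 1 for the averaged contrast and 0 for the others without it. The interactions had 0 calls either way. For isoproterenol averaged over LNAs, DESeq2 called 2 genes (Scd1 and Me1), while no filter on low counts and the log2 fold change limit of 0.5 left 0. DESeq2 called 1 in the joint test. Fits chosen after seeing the data kept the block in the 12 libraries of replicates 3 and 4 and called 6 genes for the averaged contrast, 2 in ctrlA, 4 in LNA1, 3 in LNA2, 1 for LNA1 against ctrlA and 6 in the joint test. Fits without 1 library or 1 replicate number called 0 to 5 genes for the averaged contrast without the block, 0 in ctrlA, 0 to 1 in LNA1, 0 to 1 in LNA2 and 0 to 4 in the joint test. With the block, also chosen after seeing the data, fits without 1 library called 8 to 9, 5 to 7, 5 to 7, 3 to 5 and 6 to 9, and 1 to 4 for LNA1 against ctrlA, 0 to 2 for LNA2 against ctrlA and 1 to 2 between the LNAs. The cause of these shifts was not tested. The share of all genes called is not given for DESeq2, the fit without a filter or the limit of 0.5. Nor is it given for the joint test in the 12 libraries or the fits without 1 library, replicate 3 or replicate 4. The counts of these fits describe how the calls depend on the processing and are not a result about the set. Of the isoproterenol values averaged over LNAs, none of the 9 genes changed sign in 44 alternatives, though Acacb came to -0.02 and Srebf1 to -0.08 at the nearest to 0. In LNA2 the sign changed in 34 of 45 alternatives for Srebf1 and 20 for Acacb (0 and 0.04 as reported, without a block), in 2 for Elovl6 and 1 each for Acaca and Fasn, in ctrlA in 2 for Acacb and 1 each for Acaca and Srebf1, and in LNA1 in 1 each for Acacb and Srebf1. TMM and median-of-ratios scaling gave medians over all genes within -0.022 to 0.014. Mlxipl, at 2 to 13 counts, is limited by depth. The values of the lists, markers, levels per length, likeness and Mlxipl without replicate 2 were also chosen after seeing the data.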
